A study of Mus musculus with 14 samples.

Results

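The natriuretic peptide system of the infarcted mouse ventricle was followed through 8 genes: those of the peptides (Nppa, Nppb and Nppc), of 2 proteases that cleave their precursors (Corin and Furin) and of the receptors (Npr1, Npr2 and Npr3). They were chosen by name from the 20614 named genes on the array. Each of the 8 had exactly 1 probe named through RefSeq, and 7 of them, all but Nppc, were among the 14867 named genes bright enough to be tested. Probes carried accessions rather than gene names, so each gene was found through its RefSeq accession. Probes that this left without a symbol (28338 of 55482) were not searched for these genes.

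The samples were ventricle from male C57BL/6 mice, 8 weeks old, measured on 14 Agilent 1-colour arrays with 1 sample each. In the MI (myocardial infarction) groups the left anterior descending coronary artery had been tied off permanently, and ventricular border zone was collected 3 days (5 arrays) or 14 days (5 arrays) later. Sham mice (4 arrays) had the operation without the tie, and the time at which their hearts were taken is not stated. The design text counts 5 sham and 10 ligated mice, of which 4 sham samples are analysed here, no allele or drug is named for any group, and nothing beyond the sample numbers says that samples of a group came from separate mice, so p-values measure the spread between these samples. Between arrays the 75th percentile of the signal ran from 188.6 to 443 intensity units. Scanner output was used for 10 arrays, where 54.8% to 66.1% of probes were well above background. Unless intensity units or summed signal are named, expression values below are levels or differences of levels. A level is log2 of the probe's signal minus log2 of that array's 75th percentile. Levels of different probes are not compared to say which transcript is more abundant. Signal comes from whole tissue, so fewer cells of a type and less RNA per cell cannot be told apart.

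As background, Nppa encodes atrial natriuretic peptide (ANP), Nppb B-type natriuretic peptide (BNP) and Nppc C-type natriuretic peptide (CNP). ANP and BNP are hormones of heart muscle. The adult ventricle makes little of them until its wall is stretched, and then they lower blood pressure and volume. Corin, a protease of the cardiomyocyte membrane, cleaves the ANP precursor, and furin, a protease of the secretory pathway found in most cells, cleaves the BNP and CNP precursors. Npr1 encodes the receptor guanylyl cyclase that answers ANP and BNP with cyclic GMP (cGMP), Npr2 the corresponding receptor for CNP, and Npr3 the clearance receptor, which takes the peptides up and has no cyclase.

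Nppa and Nppb are neighbours on mouse chromosome 4, on the same strand with no other gene between them in RefSeq's gene table. Because both genes rose in the comparisons below, the 250 bases before each start are shown, from RefSeq's promoter table (build GRCm38.p6). The Nppa window is chr4:148000472-148000721 and the Nppb window is chr4:147985650-147985899, both on the + strand and written 5′ to 3′. Capitals mark matches, on either strand, to 6 motifs. They are the GATA motif, AGATAA or AGATAG or TGATAA or TGATAG, the NK-homeobox element (NKE) with the letters TNAAGTG, the T-box motif AGGTGT, the M-CAT motif with the letters CATTCC, the AP-1 motif with the letters TGANTCA, and the TATA box, here TATAAA.
Nppa: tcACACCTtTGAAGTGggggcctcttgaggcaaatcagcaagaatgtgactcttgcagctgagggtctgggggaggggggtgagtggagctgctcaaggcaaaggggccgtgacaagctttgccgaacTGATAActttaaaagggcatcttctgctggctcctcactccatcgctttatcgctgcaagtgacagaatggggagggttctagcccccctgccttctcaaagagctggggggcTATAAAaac
Nppb: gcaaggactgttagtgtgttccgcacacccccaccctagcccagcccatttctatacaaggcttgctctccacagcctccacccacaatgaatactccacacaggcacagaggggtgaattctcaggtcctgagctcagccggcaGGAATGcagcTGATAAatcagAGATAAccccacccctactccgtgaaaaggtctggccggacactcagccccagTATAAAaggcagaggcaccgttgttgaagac

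Both windows held TATAAA, 9 to 4 bases before the start in Nppa and 31 to 26 in Nppb, and at least 1 GATA match. In the Nppa window the T-box match lay 248 to 243 bases before the start, the NKE match 241 to 235 and the GATA match 122 to 117. In the Nppb window an M-CAT match lay 105 to 100 bases before the start, followed by GATA matches at 95 to 90 and 84 to 79. No AP-1 match was found in either window, and no 2 matches overlapped. Among 32851 windows of this length in the table, 26.5% held a GATA match, 10.1% NKE, 11.8% T-box, 12.6% M-CAT, 6.75% AP-1 and 12.4% TATA. The other 6 genes also had entries (7 windows, since Furin has 2), and their matches were 1 T-box in Npr2, 1 NKE and 1 TATA in 1 of the 2 Furin windows and 1 TATA in Nppc, with no GATA, M-CAT or AP-1 match. A match describes letters only, and binding of a factor was not measured.

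Across the 3 comparisons, the design asks which transcripts differ from sham 3 days after infarction, which differ at 14 days, and which differ between these times. Fold changes were fitted with limma across all 32257 tested probes and called at an adjusted p under 0.05 (Benjamini-Hochberg over all of them). At 3 days against sham, 5 of the 7 tested genes were called, Nppa and Nppb higher and Npr2, Npr3 and Corin lower. All tested probes were called at 65.2% in that comparison, 25.5% higher and 39.7% lower. At 14 days against sham 3 of 7 were called, Nppa and Nppb higher and Furin lower, where 32.5% of all tested probes were called, 12.8% higher and 19.8% lower. Of those calls 39.3% were higher, a share that was 53.1% when the percentile was taken over tested probes alone. Between 3 and 14 days 6 of 7 were called, Nppa, Npr1, Npr2, Npr3 and Corin higher at 14 days and Furin lower, where 55.6% of all tested probes were called, 32.7% higher and 22.9% lower. Groups did not overlap for 5, 3 and 5 of the 7 genes in these comparisons. Over all tested probes they did not overlap for 56.8% (22.6% higher, 34.1% lower), 27.4% (10.3% higher, 17.2% lower) and 40.0% (21.2% higher, 18.8% lower). Between 3 and 14 days the 5 of 7 genes called higher lay above the 32.7% of all tested probes. Counts of 7 genes say little beside these shares, so the description below rests on the single genes. The median change of the 7 genes was -0.36, -0.13 and 0.63 on the log2 scale in the order of these comparisons, beside -0.19, -0.09 and 0.13 for all tested probes.

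**Figure D1:**
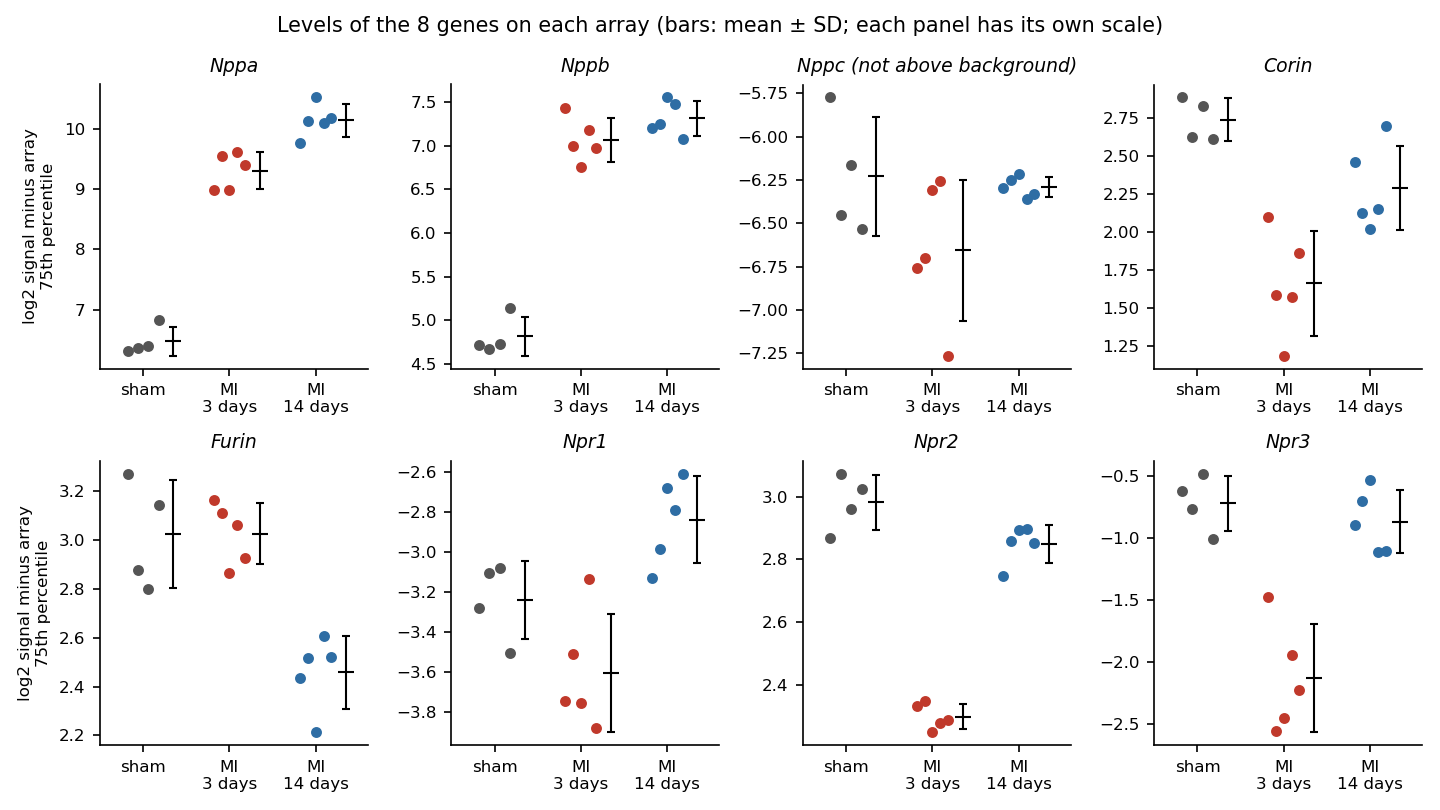
Level of each of the 8 genes on every array (vertical axis, log2 of signal over the array's 75th percentile, each panel on its own scale) in sham, MI 3 days and MI 14 days, with points for arrays and bars for the mean ± SD. Nppa and Nppb sat far above sham at both times, Npr2 and Npr3 dipped at 3 days, Furin was lower at 14 days, and Nppc was not above background.

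Nppa, the ANP gene, had the largest change of the 7 tested genes. Its levels in the 4 sham samples were 6.30, 6.37, 6.40 and 6.83. At 3 days they were 8.98, 9.55, 8.99, 9.61 and 9.41, and at 14 days 9.76, 10.14, 10.53, 10.10 and 10.19. The 3 groups did not overlap and stood in the order sham, 3 days, 14 days. Nppa was 7.15-fold higher at 3 days (2.84 ± 0.18 on the log2 scale, SE, limma adjusted p = 1.61e-08) and 12.7-fold higher at 14 days (3.67 ± 0.18, limma adjusted p = 9.28e-08) than in sham. By fitted size the 14 day rise ranked 28 among the 32257 tested probes and the 3 day rise ranked 590. The further rise from 3 to 14 days was 1.78-fold (0.83 ± 0.17, limma adjusted p = 0.000744). With quantile normalization that last difference shrank to 0.33 and was not called (limma adjusted p = 0.0783), and with normexp background correction it was 0.51, while both rises over sham were called under every alternative run. Its probe was printed 10 times on each array, and the spots of an array had a coefficient of variation of 2.59% to 12.3% on those with scanner output.

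Nppb, the BNP gene, rose as well, and its 3 day and 14 day levels overlapped. Sham levels were 4.71, 4.68, 4.73 and 5.14. The 3 day levels were 7.44, 6.99, 6.76, 7.18 and 6.97 and the 14 day levels 7.20, 7.25, 7.55, 7.48 and 7.08. Every MI sample lay above every sham sample. Nppb was 4.76-fold higher at 3 days (2.25 ± 0.15, limma adjusted p = 2.58e-08) and 5.65-fold higher at 14 days (2.50 ± 0.15, limma adjusted p = 3.05e-07). Between the times the difference was 0.25 ± 0.14 (95% interval -0.05 to 0.54, limma adjusted p = 0.147), and intervals given here are not adjusted for multiple tests. Without MI 3 days replicate 1, the highest of its group, that difference was 0.34 and was called (limma adjusted p = 0.0455). The sham sample at 5.14, replicate 4, was also the sham sample with the highest Nppa.

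Nppc, the gene of CNP, a peptide made mainly by endothelium and in bone, was not well above background on any of the 10 arrays with scanner output. Its signal was 2.34 to 5.54 intensity units over all 14 arrays. It was not tested, and these values give only an upper bound on its level.

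**Figure D2:**
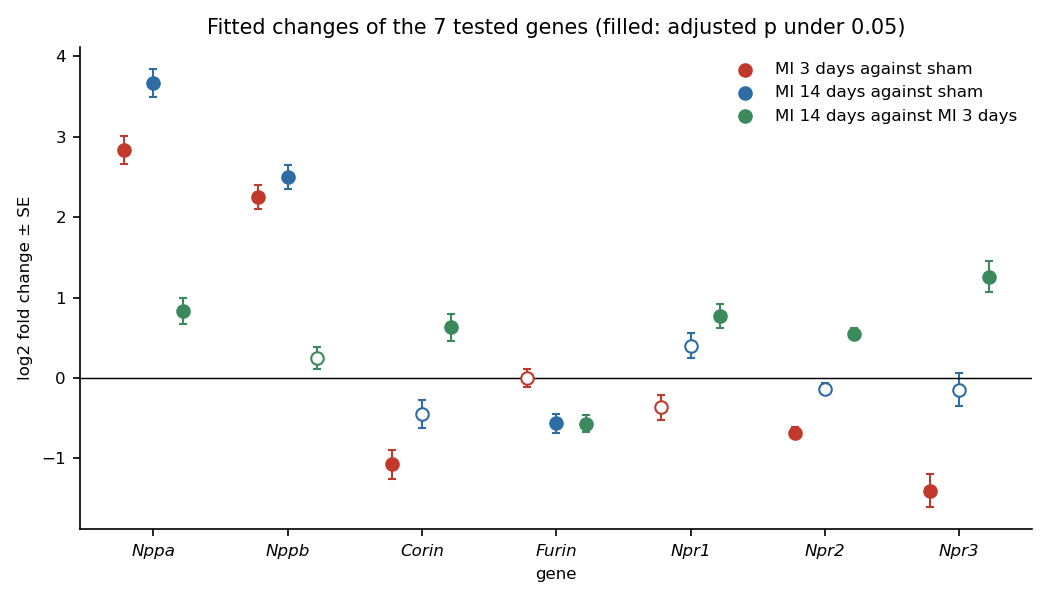
Fitted log2 fold changes ± SE (vertical axis) of the 7 tested genes (horizontal axis) in MI 3 days against sham, MI 14 days against sham and MI 14 days against MI 3 days. Filled points have an adjusted p under 0.05. Nppa at 14 days (3.67) is the highest point and Npr3 at 3 days (-1.40) the lowest.

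Of the genes of the processing proteases, Corin was called against sham at 3 days only and Furin at 14 days only. Corin, the protease of the ANP precursor, had sham levels of 2.89, 2.63, 2.83 and 2.61. At 3 days its levels were 2.10, 1.59, 1.19, 1.57 and 1.86, below every sham sample. At 14 days they were 2.46, 2.13, 2.02, 2.15 and 2.70, between the other groups and overlapping both. Corin was 2.11-fold lower at 3 days (-1.08 ± 0.18, limma adjusted p = 0.000104) and rose 1.55-fold from 3 to 14 days (0.63 ± 0.17, limma adjusted p = 0.00552). That second change was not called with the array slide as a block (0.59, limma adjusted p = 0.0987). At 14 days Corin differed from sham by -0.45 ± 0.18 (95% interval -0.83 to -0.07, limma adjusted p = 0.0661), a value that was called without MI 14 days replicate 5 (-0.55, adjusted p = 0.0250), without MI 3 days replicate 1 or 3 (adjusted p = 0.0456 and 0.0384) and under 3 other alternatives.

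Furin, which cleaves the BNP and CNP precursors, was not called at 3 days and was lower at 14 days. Its sham levels were 3.27, 2.88, 2.80 and 3.15. The 3 day levels, 3.17, 3.11, 2.87, 3.06 and 2.93, lay within the sham range. The 14 day levels, 2.43, 2.52, 2.21, 2.61 and 2.52, lay below every sample of both other groups. At 3 days the difference from sham was 0.00 ± 0.11 (95% interval -0.24 to 0.25, limma adjusted p = 0.987), and its sign turned under 7 alternatives without a call. At 14 days Furin was 1.48-fold lower than in sham (-0.57 ± 0.11, limma adjusted p = 0.00227) and also 1.48-fold lower than at 3 days (-0.57 ± 0.11, limma adjusted p = 0.000523). With the slide as a block the latter missed the threshold (-0.61, limma adjusted p = 0.0521).

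Npr3, the clearance receptor gene, had the largest fall of the 7 tested genes at 3 days. Sham levels were -0.63, -0.77, -0.49 and -1.01. At 3 days levels were -1.47, -2.55, -2.45, -1.94 and -2.22, all below the lowest sham sample, with replicate 1 the least reduced. At 14 days they were -0.90, -0.70, -0.53, -1.11 and -1.11, overlapping sham and above every 3 day sample. Npr3 was 2.65-fold lower at 3 days (-1.40 ± 0.20, limma adjusted p = 3.60e-05) and 2.39-fold higher at 14 than at 3 days (1.26 ± 0.19, limma adjusted p = 9.28e-05). With normexp background correction these changes were smaller, -0.88 and 0.78, and were called. Against sham, the 14 day difference was -0.15 ± 0.20 (95% interval -0.59 to 0.29, limma adjusted p = 0.619).

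Npr2, the CNP receptor gene, followed a like course over a narrower range. Sham levels were 2.87, 3.07, 2.96 and 3.03. At 3 days they were 2.33, 2.35, 2.25, 2.28 and 2.29, a spread of 0.10 over the 5 arrays and well below both other groups. At 14 days they were 2.75, 2.86, 2.89, 2.90 and 2.85, overlapping sham. Npr2 was 1.61-fold lower at 3 days than in sham (-0.68 ± 0.07, limma adjusted p = 9.57e-07) and 1.47-fold higher at 14 than at 3 days (0.55 ± 0.06, limma adjusted p = 8.41e-06). The 14 day difference from sham was -0.13 ± 0.07 (95% interval -0.28 to 0.01, limma adjusted p = 0.155), and with quantile normalization it was 0.00.

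Npr1, the ANP and BNP receptor gene, was the dimmest of the 7, with 17.8 to 39.9 intensity units. On the arrays with scanner output it stood 1.87 to 2.80 times above the lowest signal still well above background, which limits how well its changes are measured. Its sham levels were -3.28, -3.10, -3.08 and -3.50. At 3 days they were -3.74, -3.51, -3.75, -3.13 and -3.88, with replicate 4 inside the sham range and the others below it. At 14 days they were -3.13, -2.98, -2.68, -2.79 and -2.61, and only replicate 1 fell within the sham range. All 14 day samples were above all 3 day samples, by 1.70-fold on average (0.77 ± 0.15, limma adjusted p = 0.000602), although normexp background correction gave 0.31 without a call (limma adjusted p = 0.147). The groups were only just apart, with -3.129 as the lowest 14 day level and -3.132 as the highest 3 day level. Neither time was called against sham. The differences were -0.36 ± 0.16 at 3 days (95% interval -0.70 to -0.03, limma adjusted p = 0.0556) and 0.40 ± 0.16 at 14 days (0.07 to 0.74, limma adjusted p = 0.0637). With normexp they were -0.06 (adjusted p = 0.777) and 0.25 (adjusted p = 0.203), and with quantile normalization the 3 day difference was -0.18 (adjusted p = 0.371). Whether they passed the threshold turned on the processing and on single arrays. The 3 day difference was called when only probes well above background on all scanner arrays were tested (adjusted p = 0.0471), and the 14 day difference when the percentile was taken over tested probes (0.49, adjusted p = 0.0339). Without MI 3 days replicate 4 the 3 day difference was -0.48 (adjusted p = 0.00804) and the 14 day adjusted p was 0.0317, and without MI 14 days replicate 1 the 14 day difference was 0.48 (adjusted p = 0.0374) and the 3 day adjusted p was 0.0491. Without sham replicate 4 the 3 day difference was -0.45 (adjusted p = 0.0316).

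To ask whether genes of like role changed unequally, the level of one gene was subtracted from that of its counterpart within each array, and groups were compared with two-sided exact permutation tests over samples, adjusted over 9 tests. The smallest p these tests can give is 0.0159 for 4 against 5 samples and 0.00794 for 5 against 5. The Nppa minus Nppb difference was 1.59, 1.69, 1.67 and 1.69 in sham, a narrow band of 1.66 ± 0.05 (SD, n = 4). At 3 days it was 1.55, 2.56, 2.24, 2.44 and 2.43 (2.24 ± 0.41, SD, n = 5), so replicate 1 kept a sham-like value while the other 4 lay above sham. At 14 days it was 2.57, 2.89, 2.97, 2.62 and 3.10 (2.83 ± 0.23, SD, n = 5), above every other sample. The rise of Nppa exceeded that of Nppb by 1.17 at 14 days (exact permutation p = 0.0159, adjusted 0.0238), and the 14 day difference exceeded the 3 day one by 0.59 (exact permutation p = 0.00794, adjusted 0.0238). The latter depended on the scaling, since with quantile normalization it was 0.068 (exact permutation adjusted p = 0.762), and with normexp it was 0.28 on 10 arrays, too few for this test to pass the threshold (exact permutation adjusted p = 0.133). At 3 days the excess over sham was 0.58 (exact permutation p = 0.0794, adjusted 0.102), and it was called without MI 3 days replicate 1 (0.76, exact permutation adjusted p = 0.0357) and with quantile normalization (0.80, exact permutation adjusted p = 0.0238).

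The clearance receptor gene stood lower relative to the ANP and BNP receptor gene than in sham at both times. The Npr3 minus Npr1 difference was 2.65, 2.34, 2.59 and 2.49 in sham, 2.27, 0.96, 1.30, 1.19 and 1.66 at 3 days and 2.23, 2.28, 2.15, 1.67 and 1.50 at 14 days. All 10 MI samples lay below the lowest sham sample. The shift from sham was -1.04 at 3 days and -0.55 at 14 days (exact permutation adjusted p = 0.0238 for each). At 14 days neither gene alone was called against sham, with Npr3 at -0.15 ± 0.20 and Npr1 at 0.40 ± 0.16. With normexp on 10 arrays, too few for this test to pass the threshold, the shifts were -0.82 and -0.35. The MI groups overlapped, with a difference of 0.49 (exact permutation adjusted p = 0.134) that was 0.69 and called without MI 3 days replicate 1 (exact permutation adjusted p = 0.0357). Since Npr1 is dim, this difference carries its noise.

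Corin minus Furin was -0.38, -0.25, 0.03 and -0.53 in sham and 0.03, -0.39, -0.19, -0.45 and 0.18 at 14 days, while at 3 days it was -1.06, -1.52, -1.68, -1.49 and -1.06. The 3 day samples were thus apart from both other groups. The shift was -1.08 from sham to 3 days and 1.20 from 3 to 14 days (exact permutation adjusted p = 0.0238 for each). At 14 days, with both protease genes below sham on average, the shift was 0.12 (exact permutation adjusted p = 0.524).

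**Figure D3:**
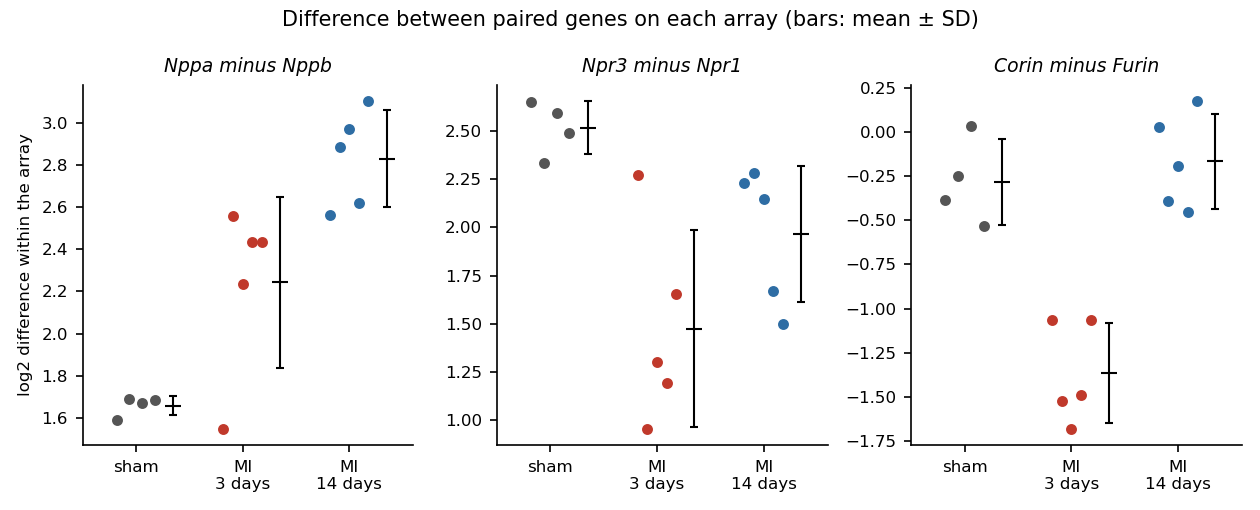
Within-array log2 difference between Nppa and Nppb, Npr3 and Npr1, and Corin and Furin (vertical axes) on every array of the 3 groups, with bars for the mean ± SD. The sham values of Nppa minus Nppb lie in a narrow band around 1.66, and MI 3 days replicate 1 (1.55) stays there.

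The 10 arrays with scanner output lay on 3 slides. The slides of MI 3 days replicates 1, 2 and 3 and of MI 14 days replicate 2 are not known. Within slides that held both groups, Nppa differed from sham by 3.22 and 2.58 at 3 days and by 3.43 and 3.44 at 14 days, and Nppb by 2.45 and 1.83 and by 2.50 and 2.23. Npr2 (-0.68 and -0.74), Npr3 (-1.45 and -1.21) and Corin (-1.26 and -0.75) were lower at 3 days on each slide, and Furin (-0.64 and -0.70) at 14 days. Npr1 differed from sham by 0.06 on 1 slide and 0.81 on the other at 14 days, and by -0.05 and -0.38 at 3 days. With the slide as a block, fitted changes from sham were 2.86 (Nppa), 2.16 (Nppb), -0.73 (Npr2), -1.38 (Npr3) and -0.98 (Corin) at 3 days and 3.53 (Nppa), 2.43 (Nppb) and -0.61 (Furin) at 14 days, all called. Each of these comparisons within a slide has 1 array in at least 1 group, so these values are given without a test.

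Markers of the cell types in the samples moved beside these genes. Summed signal of 8 ventricular cardiomyocyte markers (such as Myh6, Myl2 and Ckm) was 5607 to 7235 times the array's 75th percentile in sham, 3485 to 4217 at 3 days and 6029 to 8211 at 14 days. All 8 were lower at 3 days, 3 were lower at 14 days, and all 8 were higher at 14 than at 3 days. Corin, Npr2 and Npr3 thus fell and rose with them, while Nppa and Nppb were higher at 3 days when all 8 were lower. The part of the cardiomyocyte share in the changes of Corin, Npr2 and Npr3 was not tested. Of 8 endothelial and endocardial markers, set beside Npr3, Tek and Tie1 fell at 3 days (-0.82 ± 0.10 and -0.57 ± 0.08), Cdh5 differed by 0.24 ± 0.08, a call lost on the scanner arrays alone (adjusted p = 0.194) and without sham replicate 1 (adjusted p = 0.0535), and 5 were not called. Their summed signal was 100.2 to 112 in sham, 84.4 to 108 at 3 days and 100.1 to 118 at 14 days, and their part in the fall of Npr3 was not tested.

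Atrial muscle expresses Nppa strongly, so atrial markers were read beside it. Of 8, Bmp10 and Fgf12 were too dim to test. Of the other 6, 5 were lower at 3 days, including Myl7 (-4.58 ± 0.59) and Sln (-5.12 ± 1.05), and the same number at 14 days, when only Dkk3 was higher (2.71 ± 0.26). Myl7 and Sln were not well above background on MI 3 days replicate 4 and MI 14 days replicate 1, nor was Sln on MI 14 days replicate 4. Mybphl, another of the markers, was not well above background on any MI array with scanner output. The sizes of the falls of these markers are thus fitted values limited by background at both times. The summed signal of the 6 was 20.8, 18.9, 8.01 and 34.0 in sham replicates 1 to 4, 2.81 to 4.80 at 3 days and 13.1 to 26.0 at 14 days. Dkk3 made up most of the 14 day sum, and without it the sum was 6.56 to 31.6 in sham, 1.90 to 2.81 at 3 days and 3.06 to 6.62 at 14 days, where the highest sample lay just above the lowest sham sample. Nppa therefore was higher in the MI samples while the atrial markers other than Dkk3 were lower. Sham replicate 4, the highest in Nppa and Nppb, was also the highest in Myl7 (1.50) and Sln (2.13), and sham replicate 3 the lowest (-1.78 and -1.80). In sham replicate 3 Nppa was 6.40 and Nppb 4.73, close to sham replicates 1 (6.30 and 4.71) and 2 (6.37 and 4.68). The part of atrial RNA in the sham values was not tested. Without sham replicate 4, Nppa was higher than sham by 2.96 at 3 days and 3.79 at 14 days.

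**Figure D4:**
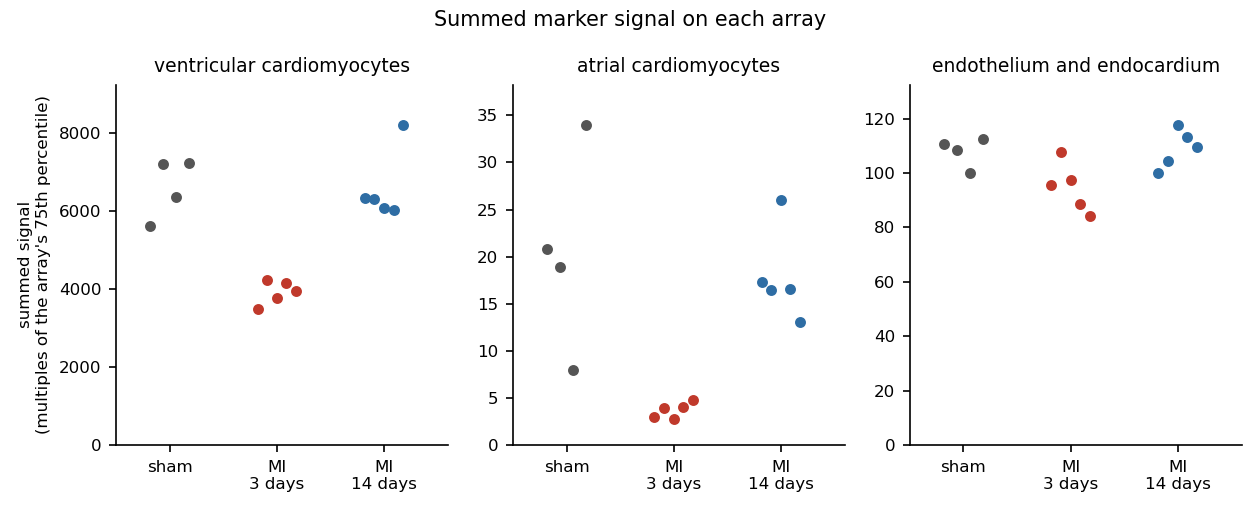
Summed signal of ventricular cardiomyocyte, atrial cardiomyocyte and endothelial markers on every array (vertical axes, multiples of the array's 75th percentile, from 0). Ventricular markers were lowest at 3 days (3485 to 4217), and atrial markers, of which Dkk3 carries most of the 14 day sum, ranged from 8.01 to 34.0 within sham.

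Among the other marker lists at 3 days, 7 of 7 tested macrophage, 5 of 5 myofibroblast, 4 of 5 neutrophil and 5 of 8 fibroblast markers were higher, 1 neutrophil marker (Csf3r, -0.19, but 0.05 and not called with quantile normalization) and 1 fibroblast marker (Dcn, -0.56) were lower, and 3 of 7 pericyte and smooth muscle markers were higher and 4 lower. At 14 days 8 of 8 fibroblast, 4 of 5 myofibroblast, 4 of 7 macrophage and 1 of 7 pericyte and smooth muscle markers were higher. Against sham, 0 of 4 lymphocyte, 0 of 5 red blood cell and 0 of 3 adipocyte markers were called by limma at either time, and 0 of each had an unadjusted p under 0.05. Of 4 mesothelial markers 3 were lower at 3 days. The part of these cells in the changes of the 8 genes was not tested.

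The wider pathway was read through 5 lists, for which the genes with the largest called changes are named (limma). The counts of all 5 lists stand beside the shares of all tested probes. These were 25.5% higher and 39.7% lower at 3 days, 12.8% and 19.8% at 14 days, and 32.7% and 22.9% between the times. Of 14 tested genes of other convertases and of enzymes that convert or degrade peptides, 1 was higher and 4 lower at 3 days, 4 higher and 2 lower at 14 days, and 8 higher and 0 lower at 14 than at 3 days, with the same counts at an unadjusted p under 0.05 in the last comparison. The list's medians were -0.19, 0.08 and 0.73, beside -0.19, -0.09 and 0.13 over all tested probes. Lower at 3 days were Mme (-1.76 ± 0.20), the gene of neprilysin, which degrades natriuretic peptides, Pcsk6 (-1.56 ± 0.11), whose product activates corin, and Pcsk4 (-1.07 ± 0.12), while Ece1 differed by 0.29 ± 0.12, a call lost under most alternatives. At 14 days Pcsk5 (1.44 ± 0.18), Ece2 (1.10 ± 0.28) and Ace (0.81 ± 0.20) were higher and Mme lower (-0.86 ± 0.20), of which Ece2 and Ace lost their calls with the slide as a block and Mme with normexp (-0.22, adjusted p = 0.159). Between the times Pcsk6 (1.53 ± 0.10), Pcsk5 (1.39 ± 0.17) and Ace (1.02 ± 0.18) rose. Pcsk6, like Corin, was thus lower at 3 days than in both other groups, with mean levels of 3.96 in sham, 2.40 at 3 days and 3.93 at 14 days.

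Of 11 tested genes of other guanylyl cyclases, nitric oxide synthases and cGMP kinases, 1 was higher and 6 lower at 3 days, 2 higher and 1 lower at 14 days, and 4 higher and 2 lower between the times (medians -0.42, 0.00 and 0.15). Subunit genes of soluble guanylyl cyclase, the nitric oxide receptor, were lower at 3 days, Gucy1b2 (-1.49 ± 0.24), Gucy1a1 (-1.28 ± 0.19) and Gucy1b1 (-0.61 ± 0.15), with Gucy2d (-0.66 ± 0.12), and the call of Gucy1b1 was lost with the slide as a block (adjusted p = 0.133) and with normexp (adjusted p = 0.0748). At 14 days against sham Gucy1b2 was lower (-1.07 ± 0.24) and Gucy1a1 higher (0.82 ± 0.19), the latter without a call when the slide was a block (0.80, adjusted p = 0.0721). Between the times Gucy1a1 (2.10 ± 0.18) and Gucy1b1 (0.93 ± 0.14) rose. Prkg1, the cGMP kinase gene of heart and smooth muscle, was also higher at 14 days (0.43 ± 0.12), a call lost with the slide or the replicate as a block and without sham replicate 3 (0.35, adjusted p = 0.0509). Prkg2, another cGMP kinase gene, was higher at 3 days (2.29 ± 0.28, and 0.84 with normexp) than in sham, where it was well above background on 2 of 4 arrays.

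Of 13 tested genes named for cGMP phosphodiesterases, not all of which encode an enzyme, 4 were higher and 6 lower at 3 days. At 14 days 2 were higher and 3 lower, and between the times 6 were higher and 2 lower (medians -0.60, -0.07 and 0.31). Pde5a, the target of sildenafil, was lower than sham at 3 days (-1.73 ± 0.15) and 14 days (-0.85 ± 0.15). Pde1a, a calcium-stimulated enzyme, was higher at both (2.04 ± 0.10 and 1.33 ± 0.10). Lower at 3 days were also Pde6a (-1.20 ± 0.27), Pde1c (-0.70 ± 0.17) and Pde3a (-0.69 ± 0.21), the last a call lost on the scanner arrays alone.

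Of 12 tested targets of cGMP kinase, 2 were higher and 5 lower at 3 days, 2 higher and 4 lower at 14 days, and 7 higher and 2 lower between the times (medians -0.41, 0.01 and 0.60, with fitted values for genes below background in a group). Lower at 3 days were Pln (-2.03 ± 0.21), of phospholamban, the brake on the calcium pump, Ttn (-1.49 ± 0.11), of titin, and Rgs2 (-1.01 ± 0.20), which damps G protein signals, while Vasp, of an actin regulator, was higher (1.08 ± 0.10). At 14 days Rgs2 (-1.24 ± 0.20) and Pln (-0.85 ± 0.21) were below sham and Rgs4 above (1.26 ± 0.12). Kcnma1, a potassium channel gene, was too dim to stand well above background in sham and was at least 4.88-fold higher at 14 days.

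Of 26 tested transcription factors reported to act on the peptide genes, 5 were higher and 15 lower at 3 days, 6 higher and 8 lower at 14 days, and 13 higher and 6 lower between the times (medians -0.52, -0.17 and 0.33). Over all tested probes 25.5% were higher and 39.7% lower at 3 days, and the medians were -0.19, -0.09 and 0.13. The largest falls at 3 days were those of Tbx5 (-2.44 ± 0.16), Prox1 (-1.87 ± 0.19), Myocd (-1.35 ± 0.11) and Nkx2-5 (-1.16 ± 0.14). Fos (2.21 ± 0.19), Egr1 (0.89 ± 0.24) and Jun (0.66 ± 0.11), genes of the early stress response, and Rest (0.65 ± 0.09), a repressor of the peptide genes, were higher, although the call of Egr1 was lost with the slide as a block (adjusted p = 0.0534). At 14 days Tbx5 (-1.37 ± 0.16), Hand2 (-1.13 ± 0.16), Mef2d (-0.72 ± 0.13) and Myocd (-0.67 ± 0.11) were below sham and Egr1 (1.30 ± 0.24), Fos (0.92 ± 0.19) and Jun (0.59 ± 0.11) above it. Tbx5 and Nkx2-5 are of families that bind motifs of the T-box and NKE kind shown above. Gata4, of the GATA family, is named for that role with its values known, and was lower at 3 days (-0.90 ± 0.10).

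**Figure D5:**
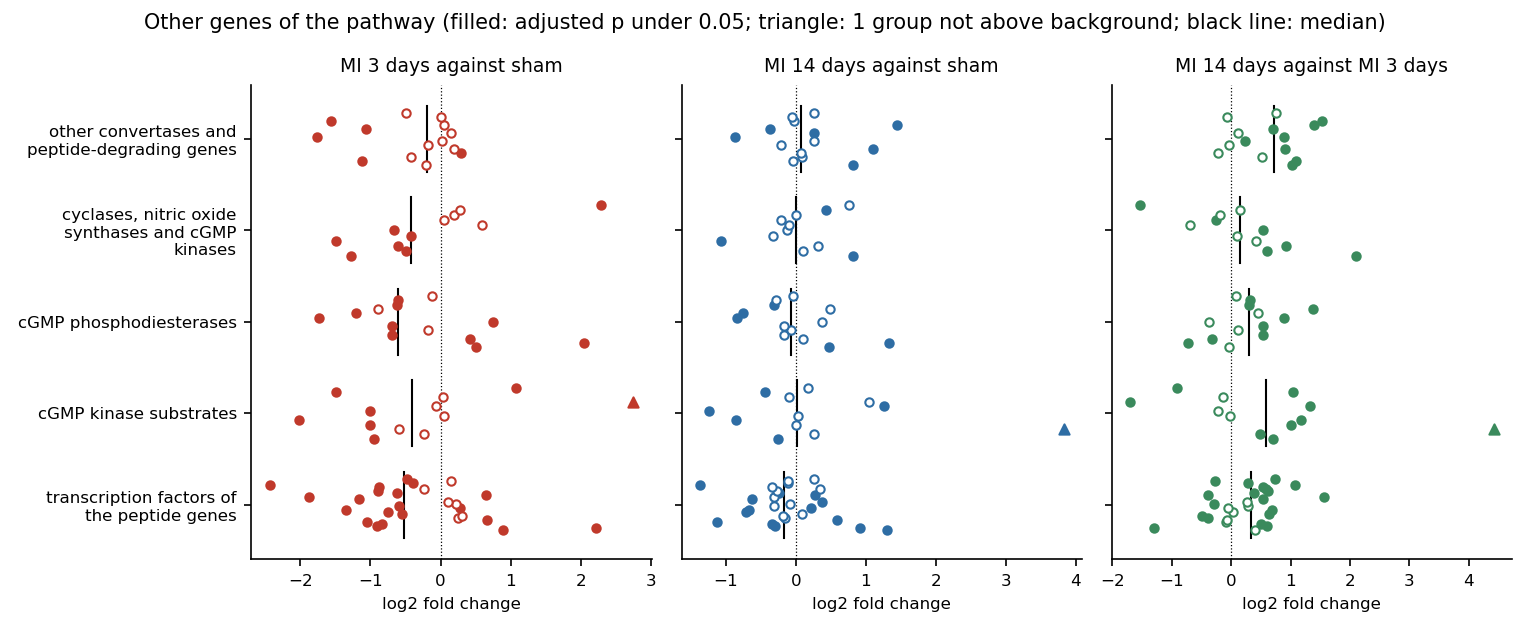
Fitted log2 fold change (horizontal axes) of each tested gene in the 5 pathway lists (rows) in each of the 3 comparisons, filled where the adjusted p is under 0.05. Triangles mark the fitted values of genes not above background in 1 of the groups, and black lines are medians. Most points of the transcription factor list lie left of 0 at 3 days (15 of 26 called lower, beside 39.7% of all tested probes).

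The named genes whose levels ran most like each of the 7 over the 14 arrays were taken from 14860 tested genes by Pearson's r, which is given without a p, since group differences and shared arrays set much of it. For Nppa they were Ltbp2 (r = 0.986), Col16a1 (0.984) and Col5a2 (0.982), of which the latter are collagen genes. For Nppb they were Bicc1 (0.985), Ankrd1 (0.981), a stretch-induced gene of cardiomyocytes, and Map6 (0.978). Npr2 ran closest to Fgf9 (0.988), Sirt4 (0.984) and Aqp7 (0.984), Npr3 to Bbs1 (0.974), AW549877 (0.965) and Arhgef3 (0.964), and Corin to Olfr97 (0.973) and Nek9 (0.967). Furin ran closest to Zmpste24 (0.952), Gtf3c6 (0.946) and Aimp2 (0.936). The dim Npr1 had the weakest companions, Tcf4 (0.882), Pcdh17 (0.862) and Gramd1c (0.859).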

How the data were processed

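Per the labels' protocols, RNA of fresh ventricle was extracted with Trizol, and both purification of poly-A RNA and labelling of 200 ng of total RNA with Cy3 are named. The series' value table, deposited by the authors, holds 1 linear intensity per probe and array, not scaled between arrays. Scanner output, made with Agilent Feature Extraction 10.7.3.1 per the file headers, was used for 10 arrays, and single-spot probes had the same value there as in the table (tolerance 1e-05). Per the submitters' processing notes limma was used, with no role given. The log2 of the deposited intensity minus each array's 75th percentile was computed here.

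Probes were named through RefSeq accessions (GRCm38.p6), which gave 27144 of 55482 probes a symbol. Tested were 32257 probes, those well above background on all scanner arrays of 1 or more groups, and no probe was saturated on the 10 arrays with scanner output. All 14 arrays were fitted together with limma 3.58.1 (R 4.3.3, lmFit and eBayes, two-sided), without a block, and pairs of genes were compared with exact permutation tests (scipy 1.17.1). A gene with several probes took the one with the highest mean level. A fold bound sets the bright group's mean level against a mean over the dim group's arrays with scanner output. On each of these, the probe's own level or the lowest level well above background was used, whichever was higher. Precision is limited by the number of arrays. Scripts were tested on simulated data. Named were all 8 genes, up to 4 genes with the largest called changes per direction in each pathway list, and the 3 genes most like each of the 7 tested, with some of these genes not reported here. The 8 genes and the lists were chosen with earlier results of these data known. Alternatives were other filters, scalings and backgrounds, scanner arrays only, slide or replicate blocks, 2 groups only and each array left out. Same-numbered samples did not deviate together (correlations -0.13 to 0.22), so the numbers were not taken to pair them.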

Additional observations from a re-analysis of the deposited data

Results flagged for a closer look

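In sham, Nppb of replicate 4 (5.14) lay far from the other 3 samples by Dixon's test. It was the 1 such value among 30 groups checked, where chance flags about 1 in 20.

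The change from sham differed between the times, by limma's contrast of 14 with 3 days, for Nppa (0.83), Npr1 (0.77), Npr2 (0.55), Npr3 (1.26), Corin (0.63) and Furin (-0.57). Both changes share the sham samples, which cancel in this contrast.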

How the results depend on the processing

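Of 21 changes of single genes, 11 kept direction and side of the threshold under all 23 alternatives, and 457 of 483 values did so in all. The number of genes called stayed within 1.5 times. The sign of the uncalled Furin difference at 3 days turned with normexp (-0.074), with scanner arrays only (-0.029), without MI 3 days replicates 1, 2 or 4 and without sham replicates 2 or 3 (leaving out each array in turn gave -0.073 to 0.085), and that of Npr2 at 14 days with quantile normalization (0.0037). The causes were not tested. Of called probes 39.3% were higher at 14 days than in sham, and 53.1% when the 75th percentile was taken over tested probes. With the slide as a block 5082 rather than 10489 probes were called at 14 days against sham and 9127 rather than 17945 at 14 against 3 days, where normexp gave 10625.

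With the replicate block, 5, 4 and 6 genes were called in the 3 comparisons. It added Corin at 14 days (-0.55, adjusted p = 0.0243) and changed no other call of the 7 genes.

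Permutation tests lost their calls where samples were few. With scanner arrays only, Nppa minus Nppb was 1.16 (14 days against sham) and 0.38 (14 against 3 days), Npr3 minus Npr1 -1.09 and -0.63 against sham, and Corin minus Furin -0.99 (3 days against sham) and 1.17 (14 against 3 days). With normexp on those arrays they were 1.16 and 0.28, -0.82 and -0.35, and -0.92 and 1.21. With quantile normalization of the pairs, added after seeing the data, Nppa minus Nppb was 0.80 and called (3 days against sham) and 0.068 and not called (14 against 3 days), and the other 7 differences kept direction and side of the threshold. Without 1 sham sample, which leaves 3, the smallest adjusted p against sham was 0.0536. Leaving out each array in turn, Nppa minus Nppb was 0.51 to 0.76 (3 days), 1.10 to 1.24 (14 days) and 0.41 to 0.67 (between), Npr3 minus Npr1 -1.24 to -0.91, -0.63 to -0.43 and 0.36 to 0.69, and Corin minus Furin -1.16 to -0.97, 0.03 to 0.22 and 1.11 to 1.27.

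Probe choice was not varied, since each gene has 1 probe named through RefSeq. Normexp used median rather than the planned mean spot signals, a choice made after seeing the data, on 10 arrays only. Depth here means signal over background, and it limits Npr1 most.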
